A study of Mus musculus with 2 samples.

Results

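Imprinted genes were examined in implantation sites, the stretches of pregnant uterus that hold a conceptus inside the decidua and muscle of the mother. The list held 36 mouse imprinted genes without the insulin-like growth factor genes, and members were all probe sets of the array whose only annotated gene was on the list. This gave 64 of 20380 probe sets with 1 gene symbol, and 34 of 12393 genes. H19 and Ppp1r9a had no such probe set. RNA came from Cbs null females (1 array) and from control females (1 array), both 4 months old, at day 8 of pregnancy, on a background given as C57Bl/6J X OLA129. Cbs encodes cystathionine beta-synthase, which takes homocysteine out of the methionine cycle. The question was which transcripts differ in sites of females that lack it. The part of Cbs that was deleted, the genotype of the conceptus and any pooling of animals or sites are not stated in the labels. With 1 array per genotype there is no replicate check, no test between genotypes was possible, and all values below describe these 2 arrays.

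Imprinted genes are transcribed mainly from the copy inherited from 1 parent. For most imprinted genes the choice is held by DNA methylation at control regions, laid down in egg or sperm and kept in the cells of the offspring. The methyl groups come from S-adenosylmethionine, a product of the methionine cycle. Many of these genes act in the growth of fetus and placenta, and several are also transcribed in adult stroma, muscle and fat. An expression array sums the RNA of both parental copies and of mother and conceptus, so none of the values tells which copy was active.

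Values are deposited signal intensities, and each log2 ratio is Cbs null over control, so that 1 unit is a doubling. Before a ratio was taken, any signal below 14.3, which marks the lowest 25% of values, was set to that floor. A probe set was kept where its mean over the 2 arrays was at least 70.5, the median of that mean, and a gene with a kept probe set is called measured, by its brightest one. The trimmed mean signal was 200.08 on both arrays. The 2 probe sets of Cbs read 23.8 and 22.3 on the Cbs null array and 30.3 and 29.9 on the control array, all below the filter. Of the marker lists, all 9 of decidual stroma, all 7 of uterine natural killer cells and all 6 of smooth muscle were measured. None of the 9 embryo markers was measured, and 7 of them lay at or under the floor on both arrays.

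Of the 34 imprinted genes on the array 17 were measured, and their ratios were small. Peg3 was the only measured member at least 1.5-fold higher in Cbs null sites, and none was at least 1.5-fold lower. Over all 7079 measured genes the shares were 2.46% in the higher direction and 1.33% in the lower one, beside which 1 of 17 and 0 of 17 do not set the members apart. None of the 17 was 2-fold apart in either direction, against 0.622% of all measured genes 2-fold higher and 0.283% 2-fold lower. The median log2 ratio of the 17 members was -0.06 (quartiles -0.18 and 0.09), beside 0.02 (quartiles -0.11 and 0.16) for all measured genes. The ratio was below 0 in 10 of the 17 members, against 44.9% of all measured genes, and above 0 in 7, against 55.0%. Lowering the filter to the 25th percentile turned the sign of the members' median, to 0.059 over 27 members. Within 1.3-fold lay 14 of the 17 members and 88.3% of all measured genes. Each of the 17 passed the filter by its control value alone, so the Cbs null value did not decide which members were measured. It did decide which probe set stands for Peg3, as given below.

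**Figure D1:**
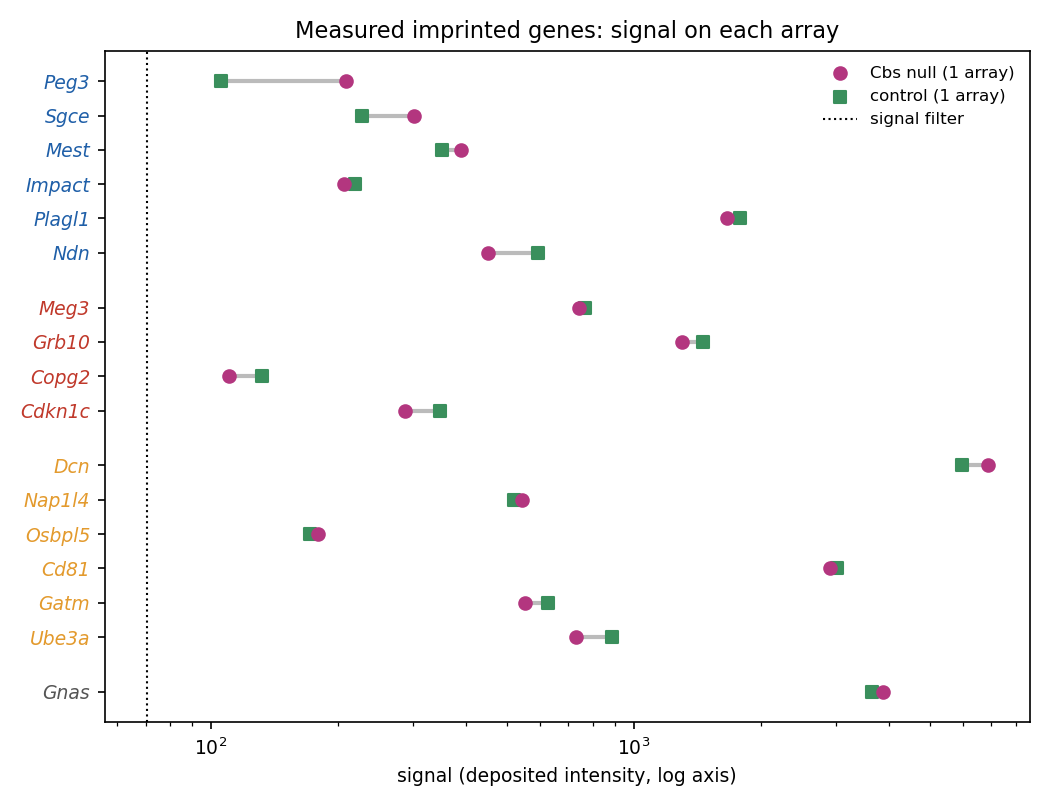
Signal of the brightest probe set of the 17 measured imprinted genes (x axis, deposited intensity on a log axis) on the Cbs null array (circles) and the control array (squares), 1 array each, with no error bars because there are no replicates. Rows are grouped by parental expression, and the widest gap is that of Peg3, at 208.0 and 105.6.

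Among paternally expressed genes 6 of 16 were measured, 3 with a ratio above 0 and 3 below, and the median was 0.03, or 0.29 over 10 genes with the signal filter lowered to the 25th percentile. Peg3, a zinc finger protein that acts in growth and maternal behaviour, had the highest ratio of all members. Its brightest probe set read 208.0 in Cbs null sites, against 105.6 in control sites, a log2 ratio of 0.98 or 1.97-fold. The second kept probe set of Peg3 read 141.2 in Cbs null sites and 118.6 in control sites, a log2 ratio of 0.25. On the control array this second probe set was the brighter one. The first stands for Peg3 because its high Cbs null value raised its mean over the 2 arrays. Both probe sets were higher in Cbs null sites, by amounts that differed by 0.73 on the log2 scale. A difference of at least that size between the 2 brightest probe sets was seen in 2.10% of the 2284 genes with several kept probe sets. The ratio of the brightest was the 45th highest of the 7079 measured genes, and the third probe set of Peg3 lay under the floor on both arrays, at 9.9 in Cbs null sites and 3.0 in control sites.

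The start of Peg3 is shown because the gene had the highest ratio of the members and faces Usp29, a paternally expressed gene that starts on the opposite strand. The RefSeq windows around the starts of Peg3 and Usp29, from 250 bases before to 50 after, overlap by 263 bases. The window of Ndn, the measured member with the lowest ratio, is set beside it. CG dinucleotides, the bases at which mouse DNA is methylated, are in capitals, and the motif CG reads the same on both strands.

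Peg3, chr7:6730370-6730669, minus strand, GRCm38.p6: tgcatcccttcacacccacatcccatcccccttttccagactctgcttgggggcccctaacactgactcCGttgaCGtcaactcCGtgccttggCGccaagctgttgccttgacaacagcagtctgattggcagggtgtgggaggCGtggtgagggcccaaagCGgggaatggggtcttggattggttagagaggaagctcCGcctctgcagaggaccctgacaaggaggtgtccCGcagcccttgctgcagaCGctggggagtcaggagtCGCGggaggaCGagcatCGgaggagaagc

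Ndn, chr7:62348027-62348326, plus strand, GRCm38.p6: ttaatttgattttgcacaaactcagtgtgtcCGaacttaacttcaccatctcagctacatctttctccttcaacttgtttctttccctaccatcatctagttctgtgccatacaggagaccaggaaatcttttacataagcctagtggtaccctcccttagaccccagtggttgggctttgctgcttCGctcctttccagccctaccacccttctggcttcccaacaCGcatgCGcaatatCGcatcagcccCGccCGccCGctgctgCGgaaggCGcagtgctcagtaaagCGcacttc

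The Peg3 window held 13 CG, a number that 37.9% of all 32851 RefSeq windows of 300 bases reached, and the Ndn window held 11, reached by 41.4%. Of all windows 94.6% held at least 1 CG, and the median was 7. RefSeq gave windows for 28 of the 36 members, 44 windows in all, in which the number of CG ran from 1 to 48 with a median of 14. The array did not measure methylation, so these counts describe the sequence only.

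Ndn, which encodes necdin, a growth suppressor of postmitotic cells, had the lowest ratio of the measured members. Its brightest probe set read 451.4 in Cbs null sites and 592.9 in control sites, a log2 ratio of -0.39. All 5 kept probe sets of Ndn had a ratio below 0, from -0.39 to -0.03, and 3 of these 5 carry the suffix for probes that may match several transcripts. The lowest of them lay inside the range of -0.48 to 0.58 that held 95% of all measured genes. Peg3 was the one member outside that range.

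Sgce, which encodes epsilon-sarcoglycan of the muscle membrane complex, had the second highest ratio. It read 302.0 in Cbs null sites and 227.3 in control sites, a log2 ratio of 0.41 at percentile 94.0 of all measured genes. Mest, a member of the alpha/beta hydrolase fold family that is abundant in mesoderm, read 389.5 in Cbs null sites and 352.2 in control sites (log2 ratio 0.15). Each rested on a single probe set.

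Impact, which restrains the stress kinase GCN2, read 206.0 in Cbs null sites and 219.6 in control sites (log2 ratio -0.09). Plagl1, a zinc finger transcription factor that halts cell division, read 1656.5 in Cbs null sites and 1785.3 in control sites (log2 ratio -0.11). Its single kept probe set is of the kind that may match several transcripts. The 5 measured paternally expressed genes other than Peg3 thus lay between -0.39 and 0.41.

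**Figure D2:**
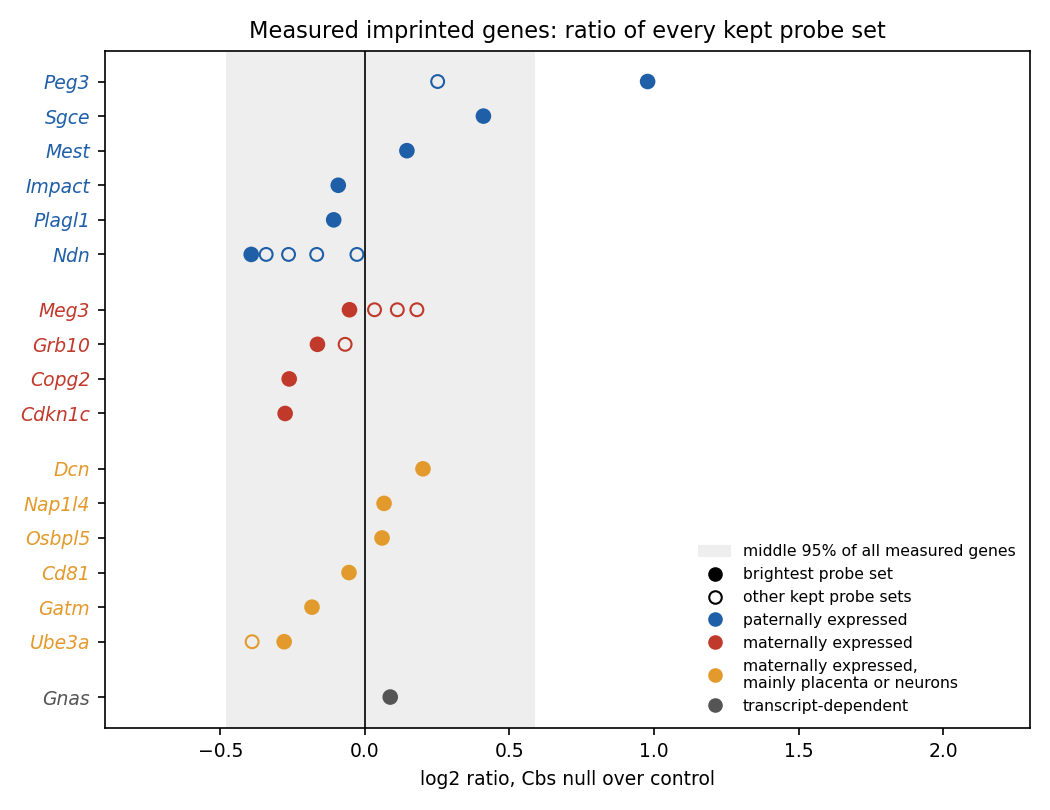
Log2 ratio of Cbs null over control (x axis) for each of the 27 kept probe sets of the 17 measured imprinted genes (rows), with the brightest probe set filled and the others open. The grey band runs from -0.48 to 0.58, the middle 95% of all measured genes, and 1 probe set of Peg3 lies outside it.

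Of 11 maternally expressed genes 4 were measured, and their median was -0.21. All 4 had a ratio below 0 in their brightest probe set, against 44.9% of all measured genes. With the signal filter lowered to the 25th percentile, 9 were measured and the median was -0.050. Cdkn1c, an inhibitor of cyclin-dependent kinases that restrains placental and fetal growth, read 287.9 in Cbs null sites and 348.6 in control sites (log2 ratio -0.28). Copg2, a subunit of the coat of transport vesicles, read 110.0 in Cbs null sites and 131.9 in control sites (log2 ratio -0.26). Both lay within 1.3-fold.

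Grb10, an adaptor that dampens insulin receptor signalling, read 1299.8 in Cbs null sites and 1456.5 in control sites (log2 ratio -0.16). Its other kept probe set had a ratio of -0.07. The brightest probe set of Meg3, a long noncoding RNA, read 739.9 in Cbs null sites and 767.8 in control sites (log2 ratio -0.05). The 3 other kept probe sets of Meg3 had ratios from 0.03 to 0.18, so the sign for this gene depends on the probe set. The brightest may match several transcripts, and without such probe sets Meg3 had 0.18.

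A further 8 maternally expressed genes are known for their allelic bias mainly in placenta or, for Ube3a, in neurons, and in other tissues use both copies. Of these 6 were measured, 3 with a ratio above 0 and 3 below, and the median was 0.00. Dcn, the matrix proteoglycan decorin, read 6864.4 in Cbs null sites and 5972.2 in control sites (log2 ratio 0.20). Nap1l4, a histone chaperone, read 543.9 in Cbs null sites and 519.5 in control sites (0.07), and Osbpl5, a lipid transfer protein, read 178.9 and 171.7 in the same order (0.06). These were the members of the class with a ratio above 0, and each was within 1.3-fold.

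Cd81, a tetraspanin, read 2909.2 in Cbs null sites and 3022.5 in control sites (log2 ratio -0.06). Gatm, which makes guanidinoacetate, the precursor that is methylated by S-adenosylmethionine to creatine, read 552.6 in Cbs null sites and 627.4 in control sites (-0.18). Ube3a, a ubiquitin ligase, read 731.5 in Cbs null sites and 887.8 in control sites (-0.28). Its second kept probe set had -0.39. A further one, just below the filter, read 52.2 in Cbs null sites and 82.9 in control sites (-0.67), and the dimmest read 41.6 and 32.7 in the same order (0.35). The dim probe sets of Ube3a thus pointed both ways.

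Gnas, from which the stimulatory G protein alpha subunit is made, is counted apart because its transcripts differ in the copy they come from. Its 1 measured probe set read 3879.8 in Cbs null sites and 3651.4 in control sites, a log2 ratio of 0.09. That probe set is of the kind that may match several transcripts. The 3 other probe sets of Gnas lay below the filter.

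**Figure D3:**
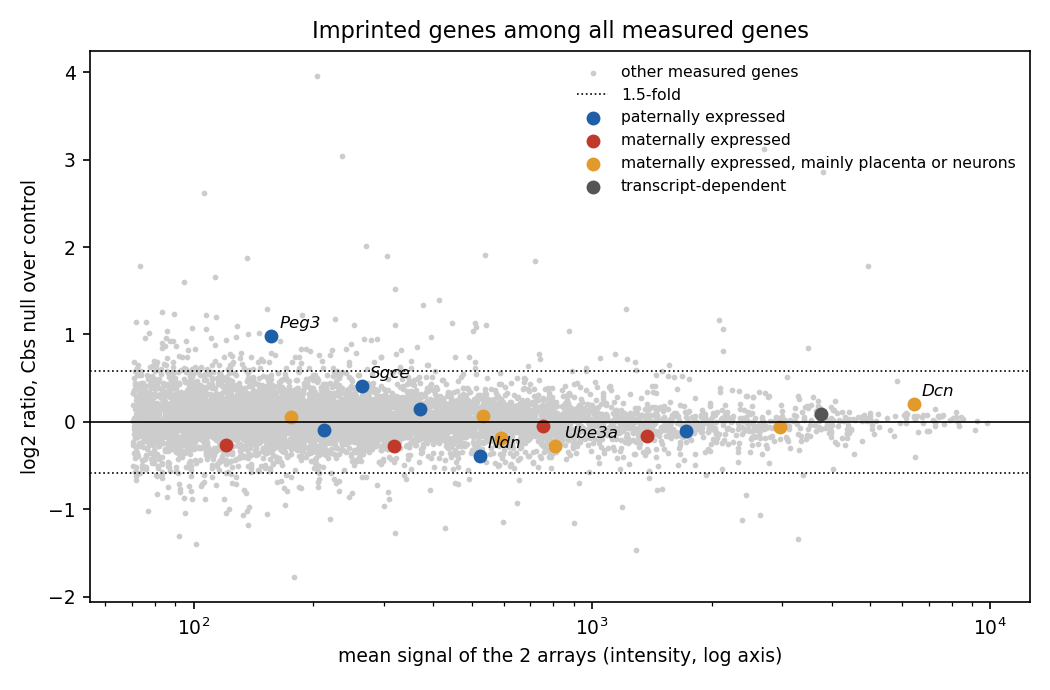
Log2 ratio of Cbs null over control (y axis) against the mean signal of the 2 arrays (x axis, log axis) for all 7079 measured genes, with the 17 imprinted genes coloured by parental expression. Dotted lines mark 1.5-fold, and Peg3 at 0.98 is the only imprinted gene beyond them.

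The other 17 of the 34 members on the array lay below the filter, as did 5314 of all 12393 genes. The brightest probe sets of these members read 0.3 to 70.3 in Cbs null sites and 1.0 to 52.6 in control sites. Of these members 6 (Magel2, Mkrn3, Usp29, Zim1, Snrpn and Peg10) lay at or under the floor on both arrays. That is 6 of the 34 on the array, beside 2331 of all 12393 genes, which does not set the members apart. Snrpn is counted here by its 1 probe set with a single gene name. The brightest probe set that it shares with Snurf read 725.2 in Cbs null sites and 566.8 in control sites, as described below. Paternally expressed genes made up 10 of the 17, from 16 on the array. Maternally expressed genes without the placenta or neuron class made up 6, from 10 on the array. The 10 paternally expressed genes took in most of the Snrpn cluster, with Snrpn counted by its single-name probe set. Slc38a4, an amino acid transporter of placenta and liver, was the 1 dim member at least 1.5-fold apart, where among all genes below the filter 6.21% were that much higher and 5.10% that much lower. It read 39.8 in Cbs null sites and 21.6 in control sites (log2 ratio 0.88), and its other probe set read 22.6 and 17.8 in the same order (0.34). Of genes below the filter with both values above the floor, 95% had ratios from -0.85 to 1.03, which takes in Slc38a4.

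Nnat, a small membrane protein first known from developing brain, lay just outside the filter, at 70.3 in Cbs null sites and 52.6 in control sites (log2 ratio 0.42), while Copg2 was the dimmest member inside it. Rasgrf1, an exchange factor for Ras, read 52.6 in Cbs null sites and 44.0 in control sites (0.26). Ascl2, Phlda2 and Peg10, which act in trophoblast or placenta, gave little signal. Cdkn1c, which restrains placental growth, was measured, as given above. Ascl2, needed for spongiotrophoblast, read 24.4 on both arrays, and Phlda2, which limits placental growth, read 13.6 in Cbs null sites and 14.8 in control sites. Peg10, a retrotransposon-derived gene needed for the placenta, read 0.3 in Cbs null sites and 1.0 in control sites.

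Of the remaining dim members, Dlk1, a Notch ligand relative of growing tissues, read 24.5 in Cbs null sites and 19.5 in control sites (log2 ratio 0.33). Kcnq1, a potassium channel, read 40.7 in Cbs null sites and 36.7 in control sites (0.15). Tspan32 had 22.0 in Cbs null sites and 30.0 in control sites (-0.45), Asb4 had 29.3 and 21.6 in the same order (0.44), and Slc22a18 had 19.3 and 18.2 (0.08). The dimmer probe set of Asb4 read 23.0 in Cbs null sites and 7.7, under the floor, in control sites (0.69). Peg12 read 17.4 in Cbs null sites and 6.4, under the floor, in control sites. Those with both values above the floor lay in the range just given for dim genes.

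**Figure D4:**
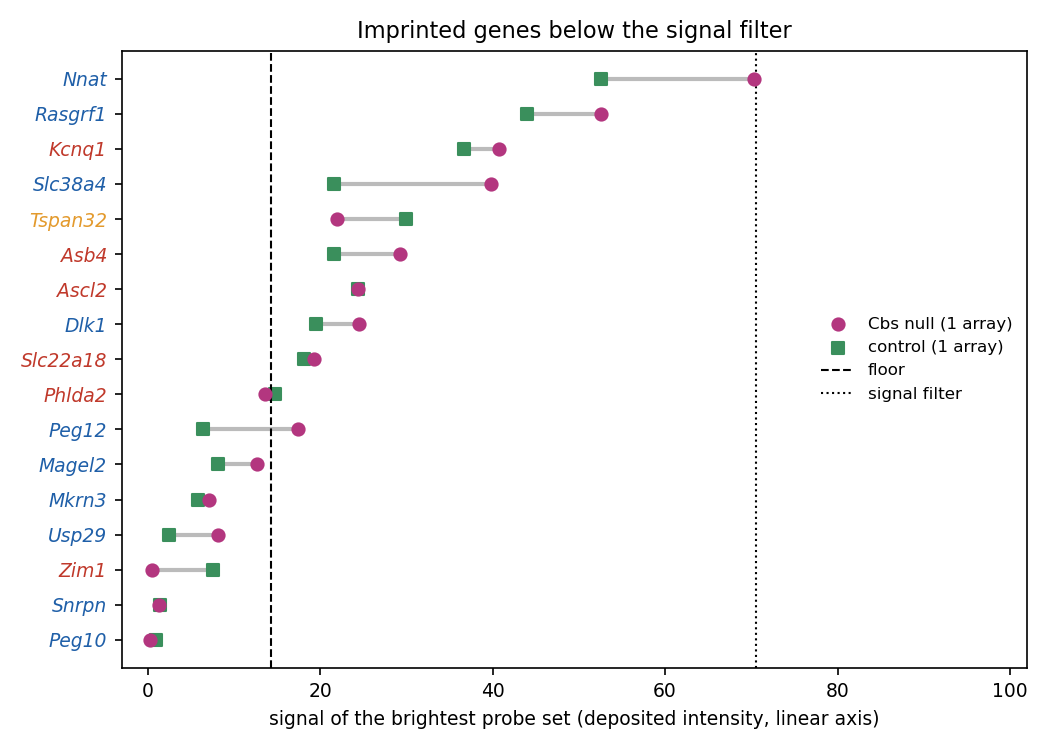
Signal of the brightest probe set (x axis, deposited intensity, linear axis) for the 17 imprinted genes below the signal filter, on the Cbs null array (circles) and the control array (squares). The dashed line is the floor of 14.3 and the dotted line the filter of 70.5, and Nnat at 70.3 on the Cbs null array lies nearest to the filter.

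Many imprinted genes lie in clusters that share control regions, and neighbours gave ratios of the same and of opposite sign. In the Peg3 cluster Peg3 was measured, while Usp29 read 8.2 in Cbs null sites and 2.5 in control sites and Zim1 0.5 and 7.6 in the same order, all under the floor. Sgce had 0.41 while Peg10, beside it, was under the floor. In the Mest cluster the paternally expressed Mest had 0.15 and its neighbour Copg2, maternally expressed, -0.26. In the Kcnq1 and H19 cluster 4 members were measured, 2 above 0 and 2 below, with a median of 0.00. In the Snrpn cluster the measured members were the paternally expressed Ndn at -0.39 and Ube3a, maternally expressed mainly in neurons, at -0.28.

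For H19 and for Snrpn the array also has probe sets shared with a second gene name, which the choice of members left out. Mir675 lies within H19, and their shared probe set read 422.4 in Cbs null sites and 279.9 in control sites (log2 ratio 0.59). H19, a long noncoding RNA, is maternally expressed. Its ratio, 1.51-fold, had the opposite sign to the brightest probe sets of the 4 measured maternally expressed genes. Of the 4 probe sets shared by Snurf and Snrpn the brightest read 725.2 in Cbs null sites and 566.8 in control sites (0.36), with the opposite sign to Ndn of the same cluster. Of the 909 kept probe sets with several gene names or none, 2.64% were 1.5-fold or more higher and 1.65% as far lower.

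A separate list of other imprinted genes, none of them a member, was read in the same way. Of its 52 genes 29 were on the array and 18 were measured. Above 0 were 12 of the 18 (55.0% of all measured genes), and the median of the 18 was 0.14 (quartiles -0.10 and 0.35). Among them 1, Dlx5, passed the filter only through its Cbs null value, at 87.2 in Cbs null sites and 60.2 in control sites (0.53). The 17 that passed by their control value had a median of 0.13. At least 1.5-fold higher were 2 of the 18 (2.46% of all measured genes), and none was that much lower (1.33%). Tfpi2, an inhibitor of serine proteinases made by placenta, read 929.2 in Cbs null sites and 544.3 in control sites (log2 ratio 0.77). Airn, the noncoding RNA antisense to Igf2r, read 328.9 in Cbs null sites and 215.9 in control sites (0.61), in a probe set whose strand was not checked. Below the filter, Nap1l5 read 47.9 in Cbs null sites and 20.3 in control sites (1.24), above the range of -0.85 to 1.03 that held 95% of dim genes, and Atp10a, a phospholipid flippase, 44.4 and 72.8 in the same order (-0.71), inside it. Measured genes that set or read imprinting marks stayed near 0. Of 19 on the array 14 were measured, 7 above 0 and 7 below, with a median of -0.01, and none was 1.5-fold apart. Of the 5 below the filter, Zfp57, which binds methylated control regions, read 61.7 in Cbs null sites and 46.4 in control sites (0.41). Dnmt3a, which adds new DNA methylation, was the highest measured at 184.2 in Cbs null sites and 158.0 in control sites (0.22), and Uhrf1, which guides methylation after replication, the lowest at 146.4 and 166.2 in the same order (-0.18).

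Markers of several cell types differed between the same 2 arrays. In bulk tissue fewer cells of a type and less RNA per cell cannot be told apart. The 10 trophoblast markers on the array had a summed signal of 1419.5 in Cbs null sites and 772.3 in control sites. Of the 6 that were measured, 3 (Ceacam11, Prl2b1 and Prl4a1) were over the filter because of their high Cbs null value, so the count of measured markers is not independent of the ratio. The 3 that passed by their control value were Tpbpa at 1.39, Krt7 at 0.29 and Eomes, a trophoblast regulator also found in natural killer cells, at -0.58. The trophoblast regulators Elf5 and Cdx2 were at or under the floor on both arrays. The 7 yolk sac endoderm markers had a sum of 1081.8 in Cbs null sites and 625.1 in control sites. Of the 3 measured, Afp and Ttr passed the filter only through their Cbs null value, and Rbp4, which passed by its control value, read 523.2 in Cbs null sites and 522.0 in control sites. Of 5 embryonic red cell markers 4 were measured and 3 were at least 1.5-fold higher, with a sum of 5538.7 in Cbs null sites and 2993.3 in control sites. All 8 epithelial markers were measured and 3 were at least 1.5-fold higher, with a sum of 17730.5 in Cbs null sites and 5660.9 in control sites. Prss28 and Prss29 made up most of that gap, and the 6 others summed to 3418.1 in Cbs null sites and 2521.9 in control sites, with Cdh1 at -0.02. Of 4 adipocyte markers 3 were measured and all 3 were at least 1.5-fold higher, with a sum of 4068.1 in Cbs null sites and 2398.6 in control sites.

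Natural killer cell markers had a sum of 4552.9 in Cbs null sites and 10334.9 in control sites, with 6 of 7 at least 1.5-fold lower. Smooth muscle markers had 27283.6 in Cbs null sites and 28110.6 in control sites, and fibroblast markers 22916.5 and 22150.2 in the same order, with none 1.5-fold apart in either list. Endothelial markers had 2611.0 in Cbs null sites and 2929.3 in control sites, again with none 1.5-fold apart. Decidual stroma markers had 11865.4 in Cbs null sites and 13591.6 in control sites, and 2 of 9, Bmp2 and Tdo2, were at least 1.5-fold lower. The median of that list was 0.02, with 5 of 9 above 0, and Prl8a2, the highest, had 0.52. The part of any of these cell types in the ratios of Peg3, H19, Tfpi2, Airn or the other imprinted genes was not tested.

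**Figure D5:**
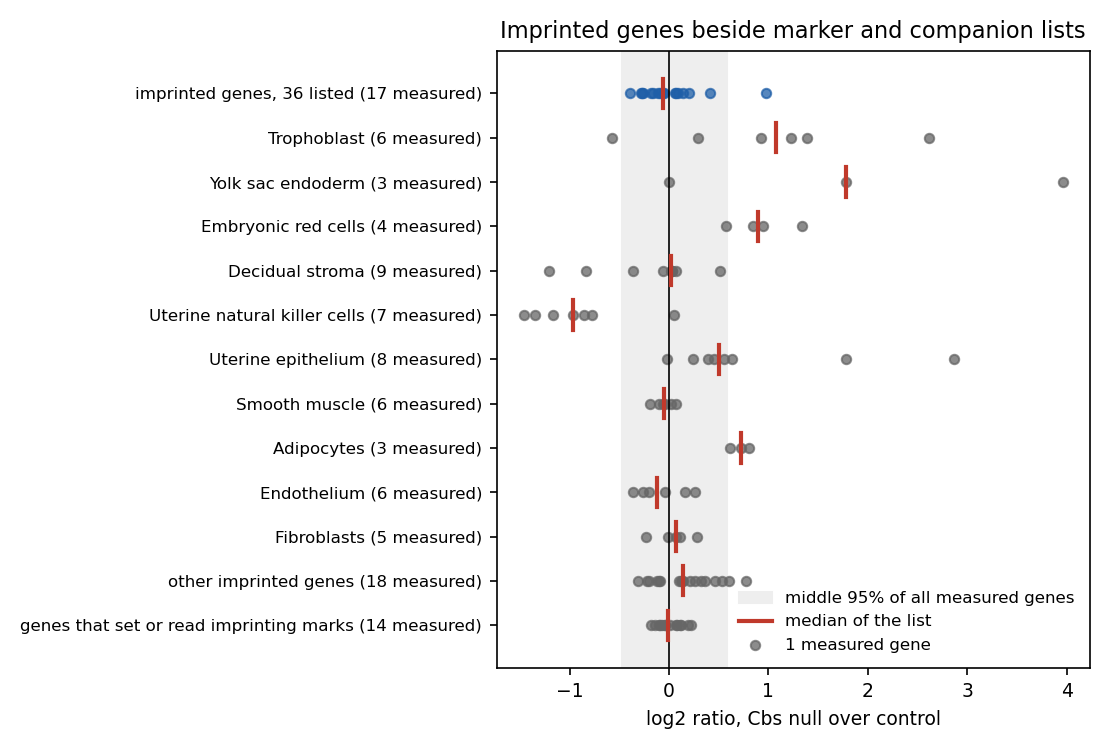
Log2 ratio of Cbs null over control (x axis) for each measured gene (points) of the imprinted genes, of 10 cell type marker lists, of the other imprinted genes and of the genes that set or read imprinting marks (rows), with red bars at the list medians. The grey band is the middle 95% of all measured genes, and the imprinted genes have a median of -0.06, while natural killer cell markers have one of -0.96. The trophoblast and yolk sac medians include 3 and 2 markers that passed the signal filter only through their Cbs null value. The median of the other imprinted genes includes 1 such gene.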

How the data were processed

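RNA of dissected implantation sites was labelled from 2 microg total RNA and hybridised to Affymetrix arrays, per the labels' protocols. The deposited values are linear intensity, 1 per probe set, which the authors produced in GCOS 1.4 (source: per the submitters' processing notes). Algorithm, target and genome build were not found in the labels or file headers. The trimmed mean (2% cut at each end) was 200.08 on both arrays, so no scaling was added. Of 22690 probe sets 64 controls were set aside. Of the 22626 others, 20380 had 1 gene symbol in the platform annotation, 691 several and 1555 none, and 20351 of the 20380 matched a RefSeq identifier, by which symbols were updated.

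Floor, filter and ratio are as described above, 11315 probe sets were kept, and no p-value was made. The number of arrays limits the precision. Named were Peg3, Mest, Meg3, members at least 1.5-fold apart, the 3 highest and 3 lowest of each class, those with probe sets of both signs and those beside the filter. Further members are named to account for each one. Members, classes and lists were chosen with earlier results of these data known. Promoter windows came from RefSeq, GRCm38.p6. Scripts (Python 3.11) were tested on simulated data.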

Additional observations from a re-analysis of the deposited data

Results flagged for a closer look

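Signal was found in probe sets that carry 2 gene names and so were left out of the members. The probe set shared by Mir675 and H19 read 422.4 in Cbs null sites and 279.9 in control sites, a log2 ratio of 0.59 or 1.51-fold. One of the probe sets shared by Snurf and Snrpn read 181.1 in Cbs null sites and 119.4 in control sites, a log2 ratio of 0.60 or 1.52-fold. Another read 125.6 in Cbs null sites and 85.1 in control sites (0.56), and the dimmest of the 4 read 31.3 and 35.0 in the same order (-0.16).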

How the results depend on the processing

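Counts of members at least 2-fold apart, or at least 1.5-fold lower, were 0 in each direction under all 12 alternative settings and both added later. The count at least 1.5-fold higher, 1 as reported, was 2 with the signal filter at the 25th percentile and without a filter, where Slc38a4 joins Peg3, and 0 with the filter at the 75th percentile, which Peg3 does not pass. The median of all members, -0.06, was 0.059 with the filter at the 25th percentile and 0 without a filter, so its sign depends on dim genes. The maternal median of -0.21 was -0.050 with the filter at the 25th percentile and -0.025 without one. The paternal median of 0.03 was 0.29 with the filter at the 25th percentile and 0.15 without probe sets open to several transcripts. Of 2 alternatives chosen after seeing the data, counting the probe sets shared by H19 and Mir675 and by Snrpn and Snurf gave 2 members at least 1.5-fold higher and a paternal median of 0.15. The other took Peg3 by its second kept probe set, at 0.25, which is the brighter one on the control array. That choice left 0 members at least 1.5-fold higher. Peg3 had 0.61 by the median over its probe sets. No count changed under quantile normalization, median centring, removal of a loess trend, a floor at the 10th or 40th percentile or a pseudocount. A filter on the control array alone changed none either. In these settings the median of all members ran from -0.079 to -0.041 and the maternal median from -0.24 to -0.20. The paternal median ran from 0.003 to 0.032, and that of the placenta or neuron class from -0.021 to 0.002. No paired analysis was possible because each genotype has 1 array. Signals near the floor of 14.3 limit what can be said of dim members.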
